A study of Macaca fascicularis with 28 samples.

Results

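Calcium signalling genes were examined as a group in macaque taste buds (TB) and in the lingual epithelium (LE) around them. The members were all genes whose symbol marks a voltage-gated calcium channel subunit, a ryanodine or inositol trisphosphate receptor, a STIM or ORAI protein, a calcium pump of the ATP2A, ATP2B or ATP2C families, a calmodulin, or a gene named for calmodulin kinase, with the CALML genes left out. This rule found 52 of the 14873 genes named on the array. Each was represented by its brightest probe set, the array's unit of measurement for a transcript, judged by the mean log2 intensity of the 28 samples. By role they were 7 pore subunits of voltage-gated channels, 12 auxiliary subunits, 5 release channels of the endoplasmic reticulum (ER), 5 genes of store-operated entry, 8 pumps, 1 calmodulin and 14 genes of the calmodulin kinase group.

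The tissue was captured by laser from tongue sections of cynomolgus macaques that had received no treatment in the study and carried no genetic change named in the labels. CV TB and the LE adjacent to circumvallate (CV) papillae came from 4 animals, and FG TB and the LE adjacent to fungiform (FG) papillae from 6 animals, among them the same 4. These 6 animals were 4 females and 2 males aged 2.6 to 4.5 years, and the 4 with CV samples were 2 females and 2 males. In a further array set, the top and bottom fractions of CV TB were captured from 4 other animals, 3 females and 1 male aged 3 years. Each sample pooled many captured TB or LE areas of 1 animal and its RNA was amplified before hybridization, so the animal is the replicate. A level is a GC-RMA intensity in arbitrary units, and 25 units is the minimum of the study. Levels are given for animals 1, 3, 4 and 5 in that order in the CV samples and for animals 7 to 10 in the fractions.

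Calcium acts as an intracellular messenger because pumps keep it low in the cytoplasm and channels let it in from outside or from the ER. In type II taste cells, as worked out mainly in mice, receptors for sweet, bitter and umami compounds activate a phospholipase whose product, inositol trisphosphate, opens ITPR3 in the ER, and the released calcium opens TRPM5. Type III cells, again in mice, carry voltage-gated calcium channels that trigger transmitter release at synapses. Calmodulin binds calcium and passes the signal to kinases, phosphatases and other enzymes.

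Several facts of the samples touch these results. The summed level of 9 type II cell markers was 14963 to 22921 units in CV TB and FG TB and 177 to 328 in LE, where GNAT3, TAS2R14 and TAS2R42 stayed under 25 units in all samples. The TAS2R42 probe set used here was dim in FG TB too, at 17.6 ± 5.18 units (SD, n = 6). The paper reports TAS2R42 as far higher in FG TB than in LE, which this probe set did not show. The summed level of 8 differentiated keratinocyte markers was 57030 to 76819 in LE and 481 to 16212 in CV TB and FG TB. The LE sample adjacent to FG papillae of animal 3 stood apart, with 10384 units over 6 skeletal muscle markers against 116 to 665 in the other LE samples of that group. In FG TB this sum was 852, 2784 and 1131 units in animals 2, 3 and 4 and 118.5 to 152 in the other animals. Values without animal 3 are given where they change a call. Array medians were 13.57 to 16.75 units, and the number of arrays limits the precision. In such bulk samples, fewer cells of a type and less RNA per cell cannot be told apart.

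Of the 52 members, 41 reached 25 units in at least 4 of the 20 samples of the first array set and were tested there. A log2 change is the difference of group means in a limma fit with the animal as a block, given ± its standard error, and a member is called at a Benjamini-Hochberg adjusted p of at most 0.05 over all 26176 tested probe sets. Folds compare geometric means with values under 25 raised to 25, and are lower bounds where marked "at least". In CV TB, 14 members were called higher than the adjacent LE and 6 lower, while 21 were not called. Over all tested probe sets, 17.3% were called higher and 18% lower in that comparison. In FG TB, 14 members were higher, 8 were lower and 19 were not called, and the background was 21.1% higher and 20.2% lower. Counting only calls with at least 5-fold, CV TB had 7 members higher and 1 lower (background 9.43% and 7.82%) and FG TB had 9 higher and 1 lower (background 8.24% and 3.71%). The background folds were taken from the log2 changes without raising values to 25, so they are not on the same measure as the members' folds. By log2 change, CACNA2D3 (3.89) and ATP2B4 (2.34) in CV TB and ATP2B4 (2.82) in FG TB also reached 5-fold. The median log2 change of the tested members was 0.23 in CV TB and 0.05 in FG TB, against -0.08 and 0.05 over all tested probe sets.

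Naming shaped these counts. For 12 members the probe set carries the name it has in the study's list of TB genes, which was selected on these same samples for a higher level in TB than in LE. Of the 14 members higher in CV TB, 11 are on that list, as are 11 of the 14 higher in FG TB, so their direction is not independent evidence. The members higher without a name from the list were ATP2B1 and RYR2 in both kinds of TB, CACNA1F in CV TB and STIM2 in FG TB. The paper counts more genes in its list than the 1997 names used here. Whether these members are on the full list is thus not settled, and they were measured on the same samples. The array's annotation has no symbol for 5 of the 12 listed probe sets, those of ATP2B4, ATP2C1, CACNA1A, ITPR3 and RYR3. It calls that of CACNA2D1 RBM12B and that of CACNA2D3 SLC30A4, so these identities are unsettled. With names from the annotation alone there were 48 members, 34 of them tested, with 7 higher and 6 lower in CV TB and 7 higher and 8 lower in FG TB.

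In all, 13 members were called higher in both kinds of TB and 3 lower in both. The share of all tested probe sets called the same way at both sites was not computed, so these counts have no background. Of the 13, all but ATP2B1 and RYR2 carry names from the study's list. The higher group held the pore subunit CACNA1A, the auxiliary subunits CACNA2D1, CACNA2D2, CACNA2D3 and CACNB3, the release channels RYR2, RYR3 and ITPR3, the pumps ATP2A3, ATP2B1, ATP2B4 and ATP2C1, and the kinase inhibitor CAMK2N1. The lower group held the pump ATP2C2, the kinase CAMK2D and the inhibitor CAMK2N2. No member was called in opposite directions. The scaling of the arrays bears on the lower calls in FG TB: with each array centred on the median of its tested values, which shifts FG TB against LE by 0.44 log2, 13 members were called higher and 18 lower, against 14.2% and 32.1% of all tested probe sets. Centred on the median of all probe sets of each array instead, 15 members were higher and 5 lower, against 24.3% and 16%, with CACNA1F gained and the lower calls of CACNA1B, CACNA1E and CACNG5 lost.

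**Figure D1:**
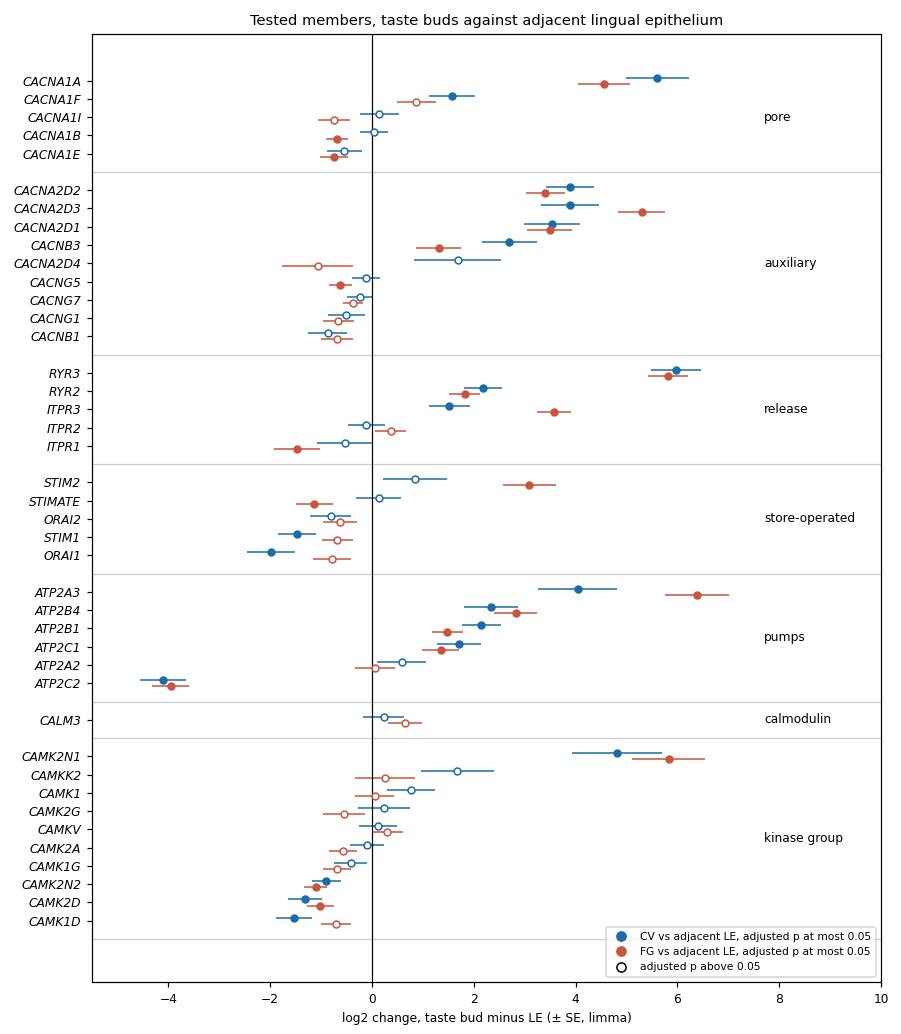
The log2 change (± SE) of the 41 tested members in CV TB (blue) and FG TB (red) against adjacent LE, grouped by role, with filled points for an adjusted p of at most 0.05. RYR3 (5.98) and CACNA1A (5.61) lie farthest to the right in CV TB, ATP2A3 (6.39) and CAMK2N1 (5.83) in FG TB, and ATP2C2 lies farthest to the left in both.

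Of the 5 tested pore subunits, CACNA1A was called higher at both sites and no other was. CACNA1A forms the P/Q-type channel, which triggers transmitter release at many synapses. In CV TB its level was 531, 601, 581 and 676, and in the adjacent LE 10.6, 14.2, 10.3 and 14.3. In FG TB it ran from 258 to 544 with a median of 324, and in LE from 5.04 to 91.4 with a median of 8.98. Every TB sample lay far above every LE sample, and the LE values over 25 units were those of animals 1 and 3. CACNA1A was at least 23.8-fold higher in CV TB, with a log2 change of 5.61 ± 0.62 (adjusted p = 1.3e-05). The rise in FG TB was at least 10.2-fold, with a log2 change of 4.55 ± 0.51 (adjusted p = 1.09e-05). The highest LE value, 91.4 units, was in the animal 3 sample with high muscle markers, and the FG change was 5.16 without that animal.

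The other pore subunits gave lower intensities, many of them around 25 units. CACNA1F, the L-type pore known from photoreceptors, measured 54.1, 149, 58.2 and 26.5 in CV TB and 23.3, 17.00, 21.6 and 18.6 in LE. All 4 CV TB values lay above the LE values, although the highest, that of animal 3, was far from the rest. The log2 change was 1.57 ± 0.46 (adjusted p = 0.0166), and the call was lost without animal 1, 3 or 4 (adjusted p = 0.0519 to 0.0545). In FG TB the log2 change was 0.87 ± 0.38 (adjusted p = 0.076), and without animal 3 it was 1.09 and called (adjusted p = 0.015). CACNA1B, the N-type pore, and CACNA1E, the R-type pore, were called lower in FG TB at log2 changes of -0.69 ± 0.22 and -0.74 ± 0.28, but at levels of 14.4 to 18.99 and 13.3 to 31.6 units against 20.5 to 39.8 and 13.9 to 49.00 in LE. Both calls rested on values around the minimum. That of CACNA1B was lost on raising values under 25 to 25 and without animal 2, 3, 5 or 6, and that of CACNA1E without any of animals 1 to 5 (adjusted p = 0.0515 to 0.149). The T-type pore CACNA1I, at 16.4 to 32.6 units in CV TB and 13.3 to 27.4 in FG TB, was not called (0.14 ± 0.38 and -0.74 ± 0.31). In FG TB it was called lower without animal 1 or 6 (adjusted p = 0.0422 and 0.0417). The same held without the animal block (adjusted p = 0.044) and with centring on the tested values (adjusted p = 0.0181). The L-type pores CACNA1C and CACNA1D stayed under 25 units in all 28 samples.

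Of the auxiliary subunits, the alpha2delta subunits help bring channels to the membrane and set their activity. They are encoded by 4 of the members, of which 3 were called higher in both kinds of TB. These 3 carry names from the study's list, and the count has no background. CACNA2D2 measured 289, 128, 289 and 233 in CV TB and 32.7, 11.1, 15.2 and 9.13 in LE. It ran from 70.7 to 261 with a median of 174 in FG TB and from 5.13 to 21.5 with a median of 16.03 in LE. The groups did not overlap at either site, and the rise was at least 8.36-fold in CV TB and at least 5.94-fold in FG TB. The log2 changes were 3.90 ± 0.47 (adjusted p = 2.86e-05) and 3.41 ± 0.39 (adjusted p = 1.31e-05).

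The probe set listed as CACNA2D1 measured 234, 76.6, 82.3 and 509 in CV TB and 25.1, 19.2, 9.48 and 9.23 in LE, and it ran from 186 to 387 with a median of 294 in FG TB and from 13.96 to 50.2 with a median of 24.7 in LE. TB and LE did not overlap, but the CV TB values spread widely, with animals 3 and 4 low and animal 5 high. The log2 changes were 3.53 ± 0.55 (adjusted p = 0.000245) and 3.49 ± 0.45 (adjusted p = 4.44e-05). The highest LE value was again that of animal 3 at FG papillae, and the FG change without this animal was 3.80.

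The probe set listed as CACNA2D3 measured 53.8, 106, 125 and 149 in CV TB and ran from 72.5 to 682 with a median of 245 in FG TB, while all LE samples lay between 3.5 and 8.9 units. TB and LE were thus separated at both sites, with a wide spread among FG TB samples, in which animals 1 and 6 were high and animals 4 and 5 low. The log2 changes were 3.89 ± 0.58 (adjusted p = 0.000164) and 5.30 ± 0.47 (adjusted p = 1.35e-06), and the level was at least 4.07-fold higher in CV TB and at least 9.15-fold higher in FG TB. CACNA2D4 measured 20.8, 39.2, 26.5 and 130.1 in CV TB and 10.3, 40.1, 6.99 and 9.07 in LE, and it ran from 9.03 to 120.1 with a median of 72.1 in FG TB and from 41.9 to 321 with a median of 79.4 in LE, with overlap at both sites. Its log2 changes of 1.69 ± 0.86 in CV TB and -1.07 ± 0.70 in FG TB had opposite signs and neither was called (adjusted p = 0.142 and adjusted p = 0.236). The difference between them was 2.75 ± 1.11, which was not called (adjusted p = 0.257).

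Among the beta subunits, which sit on the inner face of the channel, CACNB3 was higher in TB. It measured 179.8, 215, 385 and 319 in CV TB and 66.9, 33.03, 76.3 and 15.8 in LE, and it ran from 117 to 239.6 with a median of 163 in FG TB and from 30.1 to 139 with a median of 76.8 in LE. CV TB and LE were separated, whereas the LE samples of animals 5 and 6 at FG papillae reached into the FG TB range. It was 5.79-fold higher in CV TB (log2 change 2.70 ± 0.54, adjusted p = 0.00163) and 2.48-fold higher in FG TB (1.31 ± 0.44, adjusted p = 0.0292). The FG call was lost without animal 1, 2 or 3 (adjusted p = 0.0927 to 0.111). CACNB1, the beta subunit of the skeletal muscle channel, had log2 changes of -0.87 ± 0.38 and -0.69 ± 0.31 and was not called. Under some alternatives it was called lower. In CV TB this held with all LE samples as 1 group (adjusted p = 0.0348). In FG TB it held without animal 6 (-0.92, adjusted p = 0.0328) and with values under 25 raised to 25 (adjusted p = 0.0466). Centring on the tested values gave the call at both sites (adjusted p = 0.0485 and 0.0122). CACNB2 was too dim to be tested in this set, with 13.7 to 75.4 units in CV TB, 11.2 to 37.1 in FG TB and 3.9 to 12.6 in LE.

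The gamma subunits gave little signal. CACNG1, the gamma subunit of the muscle channel, and CACNG5 and CACNG7, which also act on AMPA-type glutamate receptors, were tested and only CACNG5 in FG TB was called, at -0.62 ± 0.23 (adjusted p = 0.0437) and levels of 19.3 to 25.6 units against 25.2 to 46.4. That call was lost on leaving out any of animals 1 to 5 (adjusted p = 0.0763 to 0.148). CACNG1 changed by -0.50 ± 0.37 in CV TB and -0.66 ± 0.30 in FG TB, with its highest LE value at FG papillae, 34.5 units, in the animal 3 sample with high muscle markers. CACNG7 changed by -0.24 ± 0.24 and -0.37 ± 0.20. CACNG4 did not pass the filter and CACNG2 never reached 25 units.

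**Figure D2:**
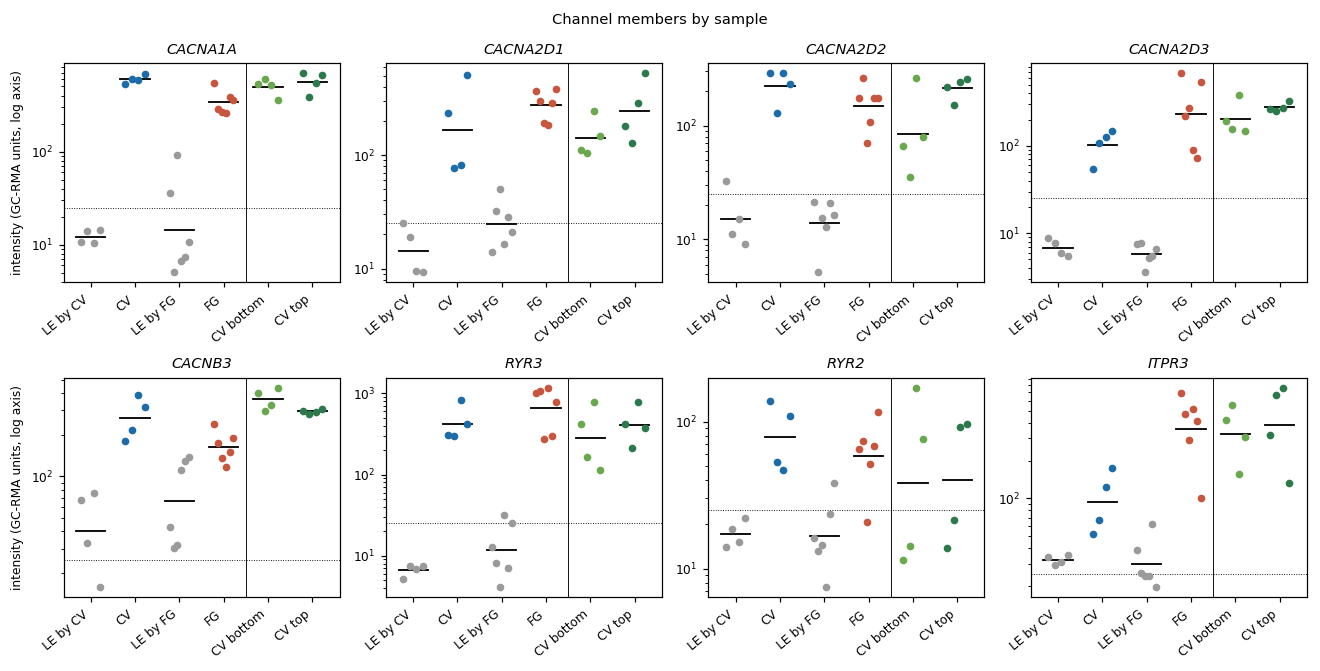
Intensity of 8 channel members in each sample, on a log axis, with 1 point per animal, a bar for the geometric mean of a group and a dotted line at 25 units; the vertical line separates the array sets. CACNA1A, CACNA2D1, CACNA2D2, CACNA2D3 and RYR3 show no overlap between CV TB or FG TB and their adjacent LE, and CV TB lie below 5 of the 6 FG TB samples for ITPR3.

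Of the 5 ER release channels, 3 were called higher in both kinds of TB, a count that has no background. Of the 3, all but RYR2 carry names from the study's list. RYR3, a ryanodine receptor, which opens when cytoplasmic calcium rises, measured 304, 297, 819 and 414 in CV TB and 5.14, 7.45, 6.84 and 7.42 in LE. Its FG TB levels ran from 274 to 1174 with a median of 883, with animals 3 and 5 low, and its LE levels from 4.11 to 31.9 with a median of 10.5. No LE sample came near a TB sample. The rise was at least 16.7-fold in CV TB, with a log2 change of 5.98 ± 0.49 (adjusted p = 8.59e-07), and at least 25.03-fold in FG TB, with 5.82 ± 0.40 (adjusted p = 1.01e-07). RYR2, the ryanodine receptor of heart muscle, measured 137, 52.97, 46.9 and 109 in CV TB and 14.04, 18.5, 15.2 and 22.1 in LE, again without overlap (log2 change 2.18 ± 0.37, adjusted p = 0.000519). It ran from 20.7 to 116 with a median of 66.4 in FG TB and from 7.48 to 37.9 with a median of 15.2 in LE, with an overlap through the low FG TB value of animal 3 (log2 change 1.83 ± 0.31, adjusted p = 0.000421).

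ITPR3, the inositol trisphosphate receptor of type II taste cells in mice, was the only member also called between the 2 kinds of TB. It measured 52.1, 66.6, 122 and 176 in CV TB and 33.9, 29.6, 30.9 and 35.2 in the adjacent LE. In FG TB its level was 691, 471, 294, 513, 411 and 101 in animals 1 to 6, and in LE 38.6, 25.6, 23.8, 24.05, 62.7 and 19.6. Each TB sample exceeded every LE sample of its site, and in the 4 shared animals every FG TB value exceeded every CV TB value, while animal 6 had a low FG TB value within the CV range. ITPR3 was 2.88-fold higher in CV TB than in LE (log2 change 1.52 ± 0.41, adjusted p = 0.0102) and at least 11.3-fold higher in FG TB (3.58 ± 0.33, adjusted p = 2.02e-06). The CV call was lost without animal 4 or 5 (adjusted p = 0.0642 and 0.0734).

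Between CV TB and FG TB, ITPR3 was the only member called, lower in CV TB, where 0.493% of all tested probe sets were called lower and 0.871% in either direction. The log2 change was -2.22 ± 0.39 (adjusted p = 0.0151), lower in 4 of 4 animals. Leaving out animal 1, 3, 4 or 5, each of which leaves 3 animals with both kinds of TB, ended the call (log2 change -1.75 to -2.49, adjusted p = 0.0726 to 0.102). The adjacent epithelia differed by -0.16 ± 0.39 (adjusted p = 0.867), and the difference between the CV and FG effects over LE was -2.06 ± 0.53 (adjusted p = 0.0804), which was not called. The summed type II markers overlapped between CV TB (17071 to 22921 units) and FG TB (14963 to 19341), but single markers differed in both directions. TAS1R1 was at 66.1 ± 33.8 units (SD, n = 4) in CV TB and 402 ± 67.4 (n = 6) in FG TB, and TAS2R14 at 3436 ± 536 and 765 ± 734. In CV TB against FG TB, 1 of 8 tested type II markers was called lower and 0 higher. Of 6 tested type III markers, 1 was called higher and 0 lower. Of the 3 type I cell markers, SLC1A3 was at 738.5 ± 385 units (SD, n = 4) in CV TB and 42.4 ± 57.4 (n = 6) in FG TB, whereas ENTPD2 was at 33.7 ± 9.94 and 36.9 ± 4.60 and KCNJ1 stayed under 25 units in both. The part of cell type makeup in the ITPR3 difference was not tested.

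ITPR1, the form that dominates in brain, went the other way. It ran from 40.8 to 168 with a median of 78.1 in FG TB and from 99.5 to 466 with a median of 191 in LE, and it was lower in FG TB than in LE in 6 of 6 animals although the ranges overlapped. The log2 change was -1.48 ± 0.45 (adjusted p = 0.0175), and the call was lost without animal 4 or 6 (adjusted p = 0.0784 and 0.0514). In CV TB it was -0.52 ± 0.55 (adjusted p = 0.486). ITPR2 was not called at either site, with 14.4 to 32.1 units in CV TB and 12.3 to 125 in FG TB.

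Store-operated entry refills the ER: STIM1 and STIM2 sense its calcium and open ORAI channels in the plasma membrane. STIM2 was called higher in FG TB and STIM1 lower in CV TB. STIM2 ran from 479 to 829 with a median of 686 in FG TB and from 10.4 to 212 with a median of 115 in LE, with no overlap. It was 7.39-fold higher in FG TB, with a log2 change of 3.10 ± 0.52 (adjusted p = 0.000409). In CV TB it measured 172, 141, 298 and 345 against 103, 97.3, 279 and 84.7 in LE, where the value of animal 4 stood above the others and made the groups overlap. The CV change of 0.85 ± 0.63 was not called (adjusted p = 0.316), though higher in 4 of 4 animals. The effects at the 2 sites differed by -2.25 ± 0.82, which was not called (adjusted p = 0.207). Both other STIM2 probe sets were called higher in FG TB (2.66 ± 0.42 and 1.72 ± 0.44), and the brighter of them also in CV TB (1.41 ± 0.51, adjusted p = 0.0446).

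STIM1 behaved otherwise. It measured 154, 262, 349 and 181 in CV TB and 536, 678, 805 and 512 in LE, without overlap, and was 2.77-fold lower in CV TB (log2 change -1.47 ± 0.37, adjusted p = 0.00687). It ran from 236 to 510.4 with a median of 327 in FG TB and from 219.7 to 767 with a median of 645 in LE, lower in 5 of 6 animals and not called (-0.68 ± 0.30, adjusted p = 0.0826). The LE value of animal 2, 219.7 units, lay far under the others, and without this animal the change was -0.93 and called (adjusted p = 0.0279). ORAI1, the main pore of store-operated entry, measured 24.7, 27.3, 23.4 and 28.6 in CV TB and 49.97, 109, 165 and 122 in LE. These groups were also apart, and ORAI1 was at least 3.87-fold lower in CV TB (-1.98 ± 0.47, adjusted p = 0.00493). Without animal 4 it was not called (adjusted p = 0.0546). The FG change of -0.78 ± 0.38 was not called (adjusted p = 0.114), but without animal 3, whose LE value at FG papillae was low at 22.4 units, it was -1.14 and called (adjusted p = 0.0336).

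ORAI2, a related pore, had log2 changes of -0.81 ± 0.41 and -0.63 ± 0.33 and was not called. In FG TB it was called lower without animal 1 (-0.75, adjusted p = 0.0312) and with centring on the tested values (adjusted p = 0.0294). STIMATE, an ER protein that promotes STIM1 coupling, was called lower in FG TB at -1.13 ± 0.36 (adjusted p = 0.0228). Its FG TB values were 10.8 to 17.2 units and its LE values 20.8 to 76.4, the highest being the LE sample of animal 3 with high muscle markers. Without that animal the change was -0.79 and the call was lost (adjusted p = 0.0923).

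Of the 8 pumps, 6 were tested, and 4 were called higher and 1 lower in both kinds of TB, counts that have no background. Of the 4, all but ATP2B1 carry names from the study's list. ATP2A3 (SERCA3), which pumps calcium into the ER, measured 859, 2310.2, 2682 and 1175 in CV TB and 492, 106, 42.4 and 38.4 in LE. It ran from 3193 to 4588 with a median of 3829.7 in FG TB and from 18.1 to 142 with a median of 46.97 in LE. Every TB sample was above every LE sample, and the LE sample of animal 1 at CV papillae was the highest of the LE samples. ATP2A3 was 16.5-fold higher in CV TB (log2 change 4.04 ± 0.77, adjusted p = 0.00112) and 75.2-fold higher in FG TB (6.39 ± 0.63, adjusted p = 3.48e-06). All FG TB values lay above all CV TB values, but neither the direct comparison (-1.03 ± 0.74, adjusted p = 0.673) nor the difference of effects (-2.35 ± 0.99, adjusted p = 0.281) was called. Another ATP2A3 probe set, at 19.3 to 62.4 units in CV TB and 26.04 to 52.3 in FG TB, had changes of 0.27 ± 0.35 and 0.31 ± 0.28 and was not called.

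ATP2A2 (SERCA2), the widely used ER pump, was far above 25 units in every sample. It measured 1101, 1014, 1647 and 1540.2 in CV TB, 383, 1034, 1052 and 1337 in LE, and ran from 609 to 2133 with a median of 1472 in FG TB and from 691 to 2907 with a median of 1396 in LE. The groups overlapped at both sites, and its log2 changes of 0.59 ± 0.48 and 0.06 ± 0.39 were not called (adjusted p = 0.363 and adjusted p = 0.915). The highest LE value, 2907 units, belonged to the animal 3 sample with high muscle markers. ATP2A1 (SERCA1), the pump of fast skeletal muscle, reached 25 units in only 4 of 28 samples on its representing probe set, which was not tested. Its other probe set was tested and was not called in CV TB (-0.04 ± 0.49, adjusted p = 0.96) or FG TB (-0.82 ± 0.40, adjusted p = 0.115).

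The plasma membrane pumps ATP2B1 and ATP2B4, which push calcium out of the cell, were higher in TB. ATP2B1 measured 879, 586, 821 and 867 in CV TB and 273, 106, 172 and 189 in LE, and ran from 577 to 1238 with a median of 944 in FG TB and from 126 to 602 with a median of 325 in LE. CV TB and LE were apart, and FG TB exceeded LE in 6 of 6 animals with a slight overlap of the ranges. The rises were 4.44-fold (log2 change 2.15 ± 0.38, adjusted p = 0.000655) and 2.79-fold (1.48 ± 0.31, adjusted p = 0.0021), and another ATP2B1 probe set was called in the same direction at both sites. ATP2B4 spanned 22.4 to 101 units in CV TB and 9.48 to 19.2 in LE (2.34 ± 0.52, adjusted p = 0.00345). At the FG site it spanned 40.1 to 185 units in TB and 6.91 to 33.2 in LE (2.82 ± 0.43, adjusted p = 0.000184), and TB and LE did not overlap at either site. ATP2B3, a pump of neurons, stayed under 25 units throughout.

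The Golgi pumps ATP2C1 and ATP2C2, which fill the secretory pathway with calcium and manganese, changed in opposite directions. ATP2C2, the form of secretory and other epithelia, measured 26.7, 22.2, 32.4 and 22.4 in CV TB and 185, 323, 818 and 774 in LE. It ran from 17.9 to 42.6 with a median of 27.6 in FG TB and from 263 to 742 with a median of 457 in LE. All TB samples sat around the minimum and all LE samples far above it. ATP2C2 was at least 16.3-fold lower in CV TB (log2 change -4.11 ± 0.46, adjusted p = 1.34e-05) and at least 14.5-fold lower in FG TB (-3.96 ± 0.37, adjusted p = 2.25e-06), lower in every animal.

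ATP2C2 moved with the differentiated keratinocyte markers, which fell in TB for 8 of the 8 measured, and their part in the difference was not tested. In the FG TB sample of animal 4, which had the highest keratinocyte sum of the TB samples, ATP2C2 was at 25.5 units. ATP2C1, the widely expressed form, spanned 20.9 to 84.2 units in CV TB and 11.7 to 16.1 in LE, without overlap (1.71 ± 0.44, adjusted p = 0.00801). At the FG site it spanned 14.97 to 56.3 units in TB and 6.00 to 17.1 in LE, with an overlap through the TB value of animal 5 (1.35 ± 0.36, adjusted p = 0.00872). Many of these values were under the minimum, the CV call was lost without animal 1 (adjusted p = 0.0506), and the FG call was lost when values under 25 were raised to 25 (log2 change 0.31, adjusted p = 0.309).

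**Figure D3:**
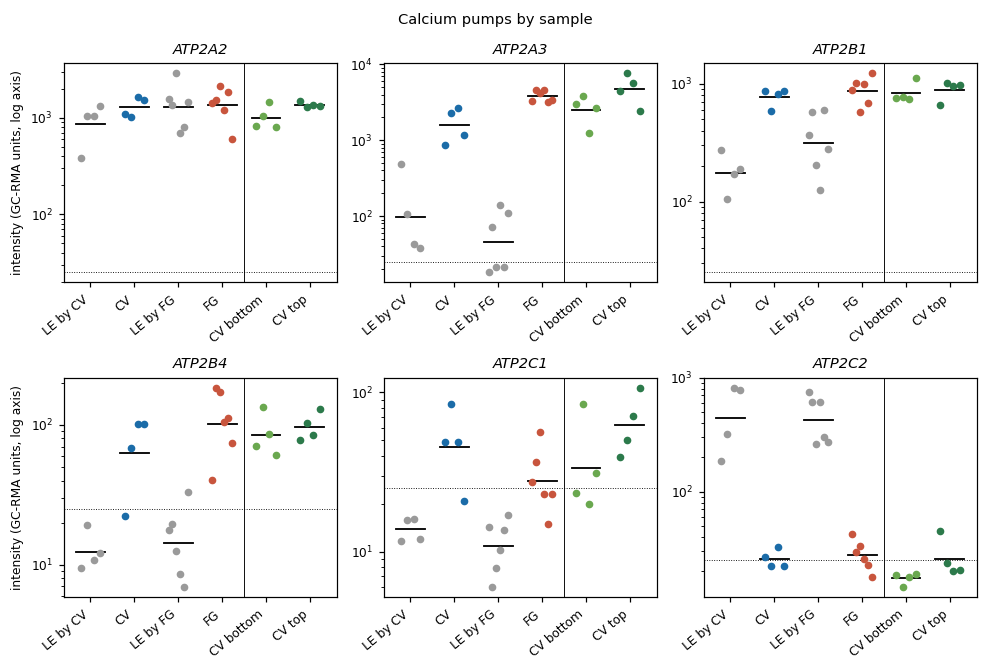
Intensity of the 6 pumps that passed the filter in each sample, on a log axis, with 1 point per animal, a bar for the geometric mean and a dotted line at 25 units; the vertical line separates the array sets. ATP2A2 overlaps between all groups, ATP2A3 and ATP2B4 are higher in every CV TB and FG TB sample than in LE, and ATP2C2 is at or near 25 units in TB and 185 to 818 units in LE.

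Calmodulin itself was represented by CALM3 alone, since a probe set annotated to several genes was not named. CALM3 measured 909.6, 1182, 969 and 608 in CV TB and 555, 981, 797 and 765 in LE, and ran from 826 to 1272 with a median of 1031 in FG TB and from 302 to 1144 with a median of 777 in LE. The groups overlapped and the log2 changes of 0.23 ± 0.40 and 0.65 ± 0.33 were not called. The other CALM3 probe set gave a different result. It was lower in CV TB, at 34.3 to 123 units against 158 to 399 in LE (-2.08 ± 0.47, adjusted p = 0.00349), and in FG TB, at 47.8 to 151 against 137 to 373 (-1.59 ± 0.38, adjusted p = 0.00493). Whether CALM3 is called thus depends on the probe set.

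In the calmodulin kinase group, the inhibitor of CaM kinase II CAMK2N1 was the only member called higher, at both sites. It measured 4278, 4591, 5519 and 5543 in CV TB and 16.8, 209.8, 299.8 and 914 in LE. In FG TB it ran from 4338 to 6897 with a median of 5472, and in LE from 18.8 to 652 with a median of 111. TB values were tightly grouped, whereas LE values ranged from 16.8 to 914 units, and the groups were far apart. CAMK2N1 was 25.4-fold higher in CV TB (log2 change 4.81 ± 0.88, adjusted p = 0.000815) and 54.4-fold higher in FG TB (5.83 ± 0.72, adjusted p = 2.91e-05). Another CAMK2N1 probe set, at 19.2 to 79.2 units over these 4 groups, had changes of -0.59 ± 0.39 and -0.06 ± 0.32 and was not called. CAMK2N2, the related inhibitor, was lower in TB at low levels, with 14.3 to 22.1 units in CV TB against 29.2 to 36.1 in LE (-0.90 ± 0.28, adjusted p = 0.0235) and 17.7 to 37.3 in FG TB against 36.3 to 67.03 in LE (-1.10 ± 0.23, adjusted p = 0.00203). The CV call was lost without animal 1, 4 or 5 (adjusted p = 0.0831 to 0.0992), and with values under 25 raised to 25 (log2 change -0.33, adjusted p = 0.232).

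CAMK2D, the CaM kinase II delta chain, was the kinase with a fall at both sites. It measured 705, 1266, 1199.5 and 778 in CV TB and 2308, 3227, 1928 and 2229 in LE, and ran from 612 to 1360.1 with a median of 809.7 in FG TB and from 1076 to 2462 with a median of 1732 in LE. CV TB and LE did not overlap, and FG TB were below LE in 6 of 6 animals, although the FG TB value of animal 6 lay above the LE value of animal 4. The fall was 2.49-fold in CV TB (log2 change -1.32 ± 0.33, adjusted p = 0.00745) and 2.02-fold in FG TB (-1.01 ± 0.27, adjusted p = 0.00931), the latter lost without animal 5 (adjusted p = 0.0521). The gamma chain CAMK2G overlapped between all 4 groups and was not called (0.24 ± 0.50 and -0.54 ± 0.41). Of the chains known from brain, CAMK2A, at 12.3 to 32.8 units in CV TB and 12.03 to 26.3 in FG TB, was not called (-0.10 ± 0.34 and -0.56 ± 0.28), and CAMK2B stayed under 25 units on its representing probe set, while 2 of its other 3 probe sets reached 25 in 1 sample each.

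CAMK1D, a CaM kinase I, measured 152, 96.8, 101 and 138 in CV TB and 449.6, 244, 363 and 359 in LE. Its level ran from 227 to 549 with a median of 279.5 in FG TB and from 422 to 872 with a median of 486 in LE. All CV TB values lay below all other samples of this set, and FG TB overlapped with LE. CAMK1D was 2.90-fold lower in CV TB than in LE (-1.53 ± 0.36, adjusted p = 0.00437), whereas the FG change of -0.71 ± 0.29 was not called (adjusted p = 0.0639). The FG change was called without animal 1 or 2 (adjusted p = 0.0421 and 0.0356). It was also called without the animal block (adjusted p = 0.043) and with centring on the tested values (adjusted p = 0.0108). The difference between CV TB and FG TB, -1.48 ± 0.34, also fell short (adjusted p = 0.0619), as did the difference of effects (-0.82 ± 0.46, adjusted p = 0.42). It was called between CV TB and FG TB without the replicate block, which gave 2 members called, and with values under 25 raised to 25.

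The remaining kinase group members were not called. Among the alternatives, CAMK1G was called lower in FG TB without animal 6 (-0.92, adjusted p = 0.0122) and with centring on the tested values (adjusted p = 0.00902). CAMKK2, which activates CaM kinases I and IV, had 85.6, 149.9, 196 and 182 in CV TB and 30.3, 155, 43.3 and 21.5 in LE, higher in 3 of 4 animals (1.68 ± 0.72, adjusted p = 0.0857). In FG TB its change was 0.26 ± 0.59. CAMK1, CAMK1G and CAMKV, a relative without kinase activity, gave log2 changes of 0.77 ± 0.47, -0.42 ± 0.33 and 0.12 ± 0.37 in CV TB and 0.05 ± 0.38, -0.68 ± 0.27 and 0.31 ± 0.30 in FG TB. CAMK4 stayed under 25 units on its representing probe set and reached 25 on its other in 1 sample, and CAMKK1 and CAMKMT, a methyltransferase of calmodulin, did not pass the filter.

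**Figure D4:**
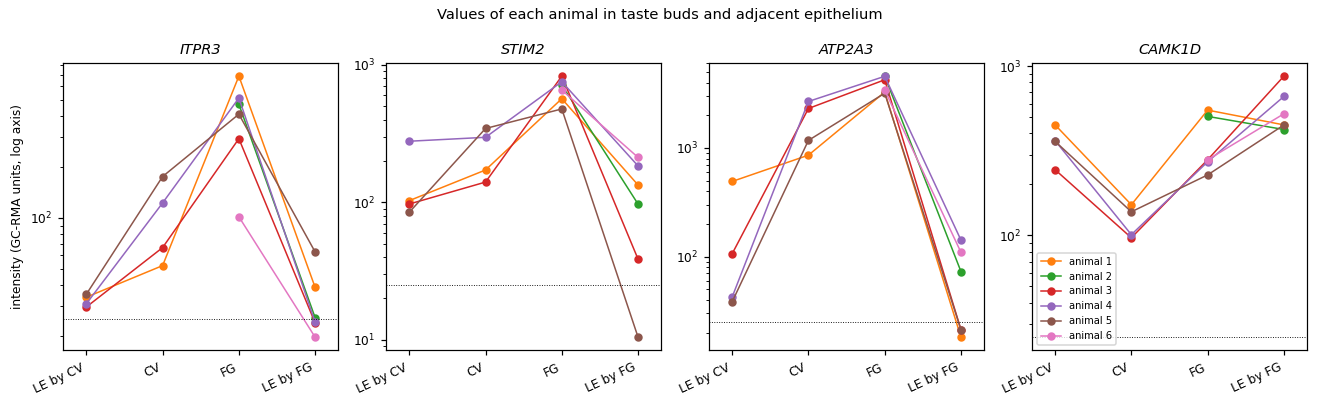
Intensity of ITPR3, STIM2, ATP2A3 and CAMK1D in each animal of the first array set, on a log axis, with lines joining the samples of 1 animal and a dotted line at 25 units. In the 4 animals with both kinds of TB, all 4 genes are higher in FG TB than in CV TB, and only the ITPR3 difference was called.

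Between the 2 epithelia, LE adjacent to CV and LE adjacent to FG papillae, none of the 41 members was called by limma, against 1.26% of all tested probe sets, and 4 had an unadjusted p under 0.05. CACNA2D4 was the farthest apart, with 10.3, 40.1, 6.99 and 9.07 units in LE at CV papillae and from 41.9 to 321 with a median of 79.4 at FG papillae, where every value was higher (-2.75 ± 0.82, adjusted p = 0.111). The others were ITPR1 (-1.18 ± 0.53), CAMKK2 (-1.62 ± 0.69) and CAMK2N2 (-0.64 ± 0.27), all lower at CV papillae. The difference of the CV and FG effects was called for 0 of 41 members, against 0.871% of all tested probe sets, and 5 had an unadjusted p under 0.05, namely ATP2A3, ITPR3, STIM2, CACNA2D4 and STIMATE.

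Top and bottom fractions of CV TB were compared in animals 7 to 10, where 29 members passed the filter in 8 samples. None was called by limma, against 3.14% of the 21167 probe sets tested there, and 4 had an unadjusted p under 0.05. That fit had 3 residual degrees of freedom. Summed fibroblast markers were 4555 to 6116 units in the bottom and 627 to 1804 in the top fraction, and type II markers 12042 to 17632 and 24256 to 28242, and their part in the values below was not tested.

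CAMK2N1 came closest. It measured 2877, 3357, 3678 and 3192 in the top and 1528, 1630.1, 1666 and 2120.0 in the bottom fraction. Every top sample lay above every bottom sample, with a 1.90-fold difference and a log2 change of 0.92 ± 0.25 (unadjusted p = 0.0088, adjusted p = 0.106). Without the replicate block it was called, the only member for which that held. CACNA2D2 measured 218, 153, 243 and 259 in the top and 66.4, 35.5, 259 and 79.5 in the bottom fraction, higher in the top in 3 of 4 animals (1.36 ± 0.41, unadjusted p = 0.0149, adjusted p = 0.136). The bottom value of animal 9 was as high as the top values.

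ITPR2 was higher in the top in 4 of 4 animals but near the minimum, at 37.7, 41.9, 54.7 and 16.9 against 28.8, 25.8, 27.8 and 8.68 (0.76 ± 0.25, adjusted p = 0.166). CACNA2D4 went the other way in 4 of 4 animals, at 95.3, 54.2, 24.3 and 45.1 in the top and 211, 93.1, 121 and 48.03 in the bottom (-1.08 ± 0.40, adjusted p = 0.198). ITPR3 showed no such order, with 321, 664, 763 and 133 in the top and 419, 551, 155 and 309 in the bottom (0.24 ± 0.56, adjusted p = 0.853).

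**Figure D5:**
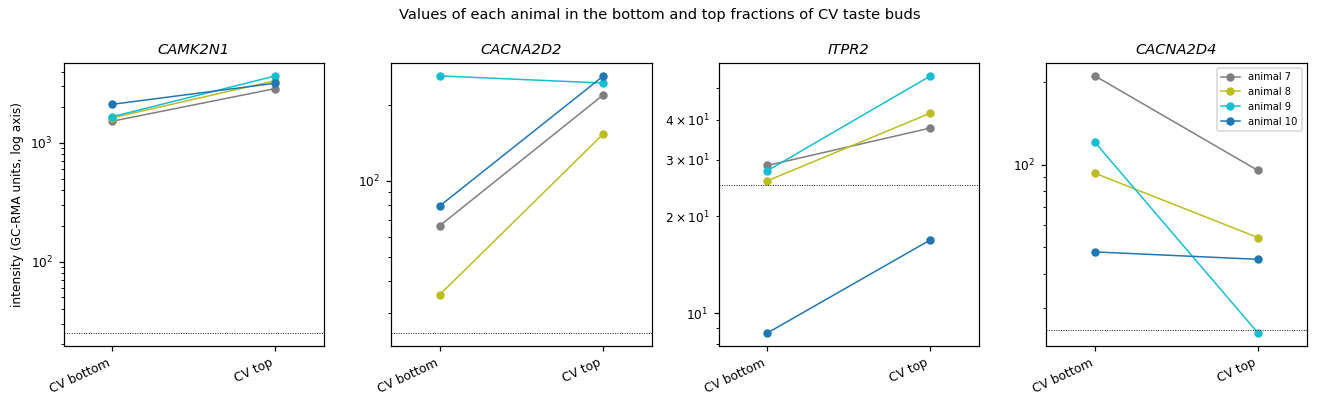
Intensity of CAMK2N1, CACNA2D2, ITPR2 and CACNA2D4 in the bottom and top fractions of CV TB, on a log axis, with a line for each of 4 animals and a dotted line at 25 units. These are the 4 members with an unadjusted p under 0.05; CAMK2N1 and ITPR2 are higher and CACNA2D4 is lower in the top fraction in every animal, none with an adjusted p of at most 0.05.

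The fractions differ from the first set in both tissue and array set, which cannot be told apart, so their levels are only set side by side. ATP2A3 measured 4389.6, 7679, 5752 and 2451 in the top and 3036, 3811, 1243 and 2633 in the bottom fraction. CACNA1A was at 387 to 697 and 359 to 600.4 units, and RYR3 at 212 to 787 and 115 to 780.2. ATP2C2 was low in both fractions, at 20.1 to 45.2 and 14.5 to 18.9 units. ITPR3, at 52.1 to 176 units in whole CV TB of the first set, spanned 133 to 763 over the 8 fraction samples.

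Calcium genes outside the members were taken from a list of 78, of which 55 were named on the array and 38 were tested. In CV TB 10 of them were higher than LE and 8 lower, and in FG TB 12 were higher and 9 lower, with median log2 changes of 0.16 and 0.50. Over all tested probe sets, 17.3% were higher and 18% lower in CV TB, and 21.1% and 20.2% in FG TB, with medians of -0.08 and 0.05. Of the 8 tested calmodulin targets outside the members, 3 were higher and 0 lower in CV TB, and 3 and 1 in FG TB. Of the 9 tested store proteins, 2 were higher and 1 lower in CV TB, and 4 and 2 in FG TB. PDE1C, a calmodulin-dependent phosphodiesterase, rose by 9.32 ± 0.45 log2 in CV TB (adjusted p = 5.13e-09) and 8.01 ± 0.37 in FG TB (adjusted p = 1.76e-09). It is among the study's top CV TB genes, which were selected on these same samples. JPH1, a junctophilin that ties the ER to the plasma membrane, rose by 5.07 ± 0.74 (adjusted p = 0.000139) and 3.44 ± 0.60 (adjusted p = 0.000582). The calcium-stimulated adenylyl cyclase ADCY1, the calcineurin subunit PPP3CB, the store protein CASQ2 and the sensor NCALD were also higher at both sites.

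Others on the list went down. SLC24A3, a sodium-calcium exchanger that also carries potassium, was the only exchanger tested and changed by -8.19 ± 0.47 in CV TB (adjusted p = 2.64e-08) and -6.39 ± 0.38 in FG TB (adjusted p = 2.66e-08). Exchangers as a class can thus not be judged here. SLC24A5, also among the exchangers listed, had no probe set of that name here, and the paper reports it as higher in CV TB than in LE and FG TB. The sensor VSNL1 changed by -2.39 ± 0.43 and -3.29 ± 0.35. Of 5 tested genes of mitochondrial calcium uptake, the uniporter pore MCU (-1.28 ± 0.40) and the outer membrane channels VDAC1 (-0.77 ± 0.24) and VDAC3 (-1.41 ± 0.45) were lower in CV TB and the regulator MICU3 was higher (3.25 ± 0.65, adjusted p = 0.00164). In FG TB only VDAC1 was called (-0.52 ± 0.19, adjusted p = 0.0422). Between CV TB and FG TB only RCAN1, an inhibitor of calcineurin, was called, and it differed likewise between the epithelia, by -1.76 ± 0.29 (adjusted p = 0.00998) and -1.99 ± 0.29 (adjusted p = 0.00546). Of all tested probe sets, 0.871% were called between CV TB and FG TB and 1.26% between the epithelia.

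In the fractions, 3 of the 33 tested genes of that list were higher in the top: PDE1C (2.41 ± 0.42, adjusted p = 0.0415), the transcription factor NFATC2 (1.59 ± 0.28, adjusted p = 0.0414) and TRPM5, the cation channel opened by calcium in type II cells (1.53 ± 0.25, adjusted p = 0.0382). Over all probe sets tested there, 3.14% were called in either direction. TRPM5 was also higher than LE in CV TB (3.26 ± 0.42) and FG TB (2.89 ± 0.35), and is also among the 9 type II markers.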

How the data were processed

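The authors captured CV TB, FG TB and LE by laser microdissection, amplified the RNA and hybridized it to rhesus macaque arrays, and processed all 28 arrays together by GC-RMA. The deposited values are intensities on a linear scale, already background corrected and normalized by the authors, for 52024 probe sets. GC-RMA pulls dim probe sets toward a common floor, so differences near 25 units are uncertain in size. Of the probe sets, 24956 carry 1 gene symbol in the array's annotation, 361 several and 26707 none, and 1997 took the name given in the study's list of TB genes, before the annotation.

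Values were analysed as log2 intensity with limma 3.58.1 in R 4.3.3, with no further scaling. A probe set was tested where 4 or more samples of a fit reached 25 units. A single fit with an animal block held CV TB, FG TB and both LE groups of the first array set (20 samples, 11 residual degrees of freedom), and another the top and bottom fractions (8 samples). The labels give the animal of each sample. Deviations from the group means correlated only weakly between samples of the same animal, with a mean of 0.05 to 0.12. The mean between animals was -0.04 to -0.01. Deviations cancel out within a group, so this second value largely follows from the first and is no separate evidence of pairing. Adjustment was by Benjamini-Hochberg across every tested probe set of a comparison. The fits were tested on simulated data. LE was not compared with the fractions, and the arrays' number limits the precision.

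Members called higher or lower than LE with at least 5-fold, members called in any other comparison and the brightest of each role class were described in full, and every other member by its range or call. Members and gene lists were chosen with earlier results of these data known. Alternatives were the filter, raising values to 25, centring of the arrays, the block, the LE reference, the groups in a fit, the probe set, each animal left out, and the methods' t-test. Centring on the tested values and names from the annotation alone were added after seeing the data.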

Additional observations from a re-analysis of the deposited data

Results flagged for a closer look

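Single samples that stood far from the rest of their group were found in 10 of 135 groups over 26 members, where chance gives about 1 in 20 groups. In the plasma membrane pump ATP2B1, the lowest CV TB sample (animal 3) was at 585.9 units, the lowest top fraction (animal 7) at 658.5 and the highest bottom fraction (animal 10) at 1124. In the calcium sensor STIM1, the LE sample adjacent to FG papillae of animal 2 was low at 219.7 units, and the top fraction of animal 10 at 264.8. STIM2 was high in the LE sample adjacent to CV papillae of animal 4, at 278.7 units.

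The others were mostly at low levels. In LE adjacent to FG papillae, CACNA1E had a lowest value of 13.9 units (animal 6), CACNA1F a highest value of 40.73 (animal 4) and ORAI1 a lowest value of 22.44 (animal 3, the sample with high muscle markers). CAMK2N2 had a highest FG TB value of 37.29 units (animal 1).

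Probe sets that did not represent their gene were called in 7 cases where the representing probe set was not. In CV TB against LE, the second ATP2A2 probe set changed by -1.5764 log2 (adjusted p = 0.0375, limma), that of CACNB2 by 1.4555 (0.0125), that of CALM3 by -2.0831 (0.00349) and that of STIM2 by 1.4136 (0.0446). In FG TB, those of CACNA1I, CACNB1 and CALM3 changed by -0.8268 (0.0217), -1.3335 (0.0128) and -1.588 (0.00493). Which transcripts these probe sets measure was not tested.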

How the results depend on the processing

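The alternatives of filter, floor, centring, block, LE reference, groups fitted and animals left out kept the probe set of each member, but the filter was applied anew. Over them the called members kept their direction. Of the calls, 15 of 20 in CV TB and 14 of 22 in FG TB held wherever the member was tested. Among these, ATP2B4 in CV TB and CAMK2N2 in FG TB were tested under 13 alternatives, the others under 14. The second brightest probe set is not among these alternatives. It was tested for 5 of the 20 called members in CV TB and 7 of the 22 in FG TB, was called the same way for 2 at each site, and had the opposite sign for CAMK2N1 at both (-0.59 and -0.06, not called). Leaving out each animal in turn left 16 to 20 members called in CV TB, 18 to 23 in FG TB and 0 to 1 between CV TB and FG TB. Without the replicate block, 2 members were called between CV TB and FG TB and 1 between the top and bottom fractions, against 1 and 0 with it. With values under 25 raised to 25, 2 were called between CV TB and FG TB. With that probe set for each gene that has another, 13 members were called in FG TB (7 higher, 6 lower) and 0 between CV TB and FG TB. With names from the annotation alone, added after seeing the data, 13 were called in CV TB and 0 between CV TB and FG TB. ITPR3 is then represented by a dim probe set that was not tested. The methods' t-test at its own threshold called 7 members in CV TB, 11 in FG TB and 0 between them, and after Benjamini-Hochberg 4, 11 and 0. Apart from centring, the share of all tested probe sets called under each alternative was not computed, so these counts have no background. Centring on the tested values, also added later, called 13 higher and 18 lower in FG TB (14.2% and 32.1% of all tested probe sets), and centring on array medians 15 and 5 (24.3% and 16%). The cause of these differences was not tested. Of members too dim to be tested, CACNB2 was called higher in CV TB and FG TB without the filter, at 2.07 and 1.11 log2, and CACNA1D (-0.56), CACNG2 (-0.64), CAMK4 (-0.70) and CAMKK1 (-1.29) lower in FG TB. The fit of only the groups compared and the t-test were not run for the difference of effects. Intensity near 25 units limits the small changes of CACNA1B, CACNA1E, CACNG5, CAMK2N2 and STIMATE.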
